A study of Mus musculus with 6 samples.

Results

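The Wnt pathway was examined in the hearts of hSRY-ON and hSRY-OFF mice through its ligands, receptors, inhibitors, signal carriers and nuclear factors. Members were the probes of the heart array whose gene symbol named a Wnt ligand, a Frizzled receptor, the co-receptors Lrp5, Lrp6, Ror1 and Ror2, a secreted inhibitor of the Sfrp, Dkk or Wif1 type, Dvl, Axin, Apc, Ctnnb1, Lef1 or a Tcf7 factor. The rule found 76 of 25697 probes and 52 of 18138 gene symbols. Total RNA was taken from the hearts of male pups at postnatal day 6 (P6), 3 hSRY-ON and 3 hSRY-OFF, of the strain FVB per the labels and FVB/N per the methods, and each heart was hybridized to its own single-colour BeadChip array. The hSRY-ON pups carried a single-copy transgene at the H11 locus in which Cre recombinase, passed on by Ddx4-Cre mothers through the oocyte, had removed DsRed2, so that FLAG-tagged human SRY and EGFP were driven by the ubiquitous CAG promoter from the single-cell embryo onward. For the arrays, hSRY-ON pups without the Ddx4-Cre transgene itself were used. The methods define hSRY-OFF as the unrecombined Signalox-hSRY transgene, whereas the results use littermates with Ddx4-Cre only or no transgene as controls, so whether the control hearts held the silent transgene cannot be told from the labels. A single transgenic line was used, and nothing in the labels ties the hearts to litters.

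Wnt proteins are secreted, lipid-modified glycoproteins that bind Frizzled receptors. With the co-receptors Lrp5 and Lrp6, the signal passes through Dvl to a complex of Axin and Apc that otherwise marks beta-catenin (Ctnnb1) for degradation, and beta-catenin then acts in the nucleus with Tcf and Lef factors. Ligands such as Wnt5a act largely without beta-catenin, through Ror2 and Frizzled receptors, on cell polarity and movement. In the heart, Wnt signals are known for their stage-dependent roles in the formation of the heart field, the outflow tract and the valves, and for their return in injured myocardium.

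At P6, Wnt5a and its receptor Ror2 were the members with the largest changes, and both were higher in hSRY-ON hearts. Wnt5a rose by 1.84 on the log2 scale (standard error 0.14) and Ror2 by 1.41 (standard error 0.12). Smaller rises, between 0.50 and 0.90 per probe, were seen for Sfrp1 and Dkk3 of the inhibitor class and for the receptor Fzd5. The beta-catenin regulators Axin2 and Apc rose within the same range. Wif1, 1 probe of Fzd4 and 1 probe of Dvl1 fell, by 0.65, 0.49 and 0.37. Ctnnb1 itself, at 0.16 and 0.13 on its measured probes, did not pass the test.

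Of the 76 member probes, 33 probes of 26 genes were tested, which required a detection p-value under 0.05 against the array's negative-control beads on at least 3 of the 6 arrays. Differences were tested with limma on background-corrected, quantile-normalized log2 intensities over all 12970 tested probes, and a probe counted as changed where its p-value after Benjamini-Hochberg adjustment was under 0.05. In total 9 member probes rose and 3 fell, 36.4% of those tested, where 27.5% of all tested probes changed. In the rising direction 13.8% of all tested probes passed, and in the falling direction 13.7%. By gene, 7 members rose on at least 1 probe, 3 fell and 16 of the tested genes had no probe past the threshold. The hSRY-ON and hSRY-OFF hearts did not overlap for 14 member probes, 9 with higher and 5 with lower hSRY-ON values, and this was so for 45.2% of all tested probes. The median log2 fold change of the 33 member probes was 0.15, against -0.0046 for all tested probes. Without hSRY-OFF replicate 1, the count was 4 up and 0 down, and without any normalization between arrays it was also 4 and 0. In the latter setting every call other than those of Wnt5a and Ror2 was lost, and Wnt9b ILMN_1231288 passed. The fit there gave the same standard error of 0.30 to Wnt9b ILMN_1231288, Apc ILMN_2655204 and Wnt5a ILMN_2511913. As reported, their standard errors were 0.43, 0.13 and 0.14. For such probes, passing in that setting depended on the size of the difference alone and not on the probe's own spread. All fold changes are hSRY-ON minus hSRY-OFF.

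**Figure D1:**
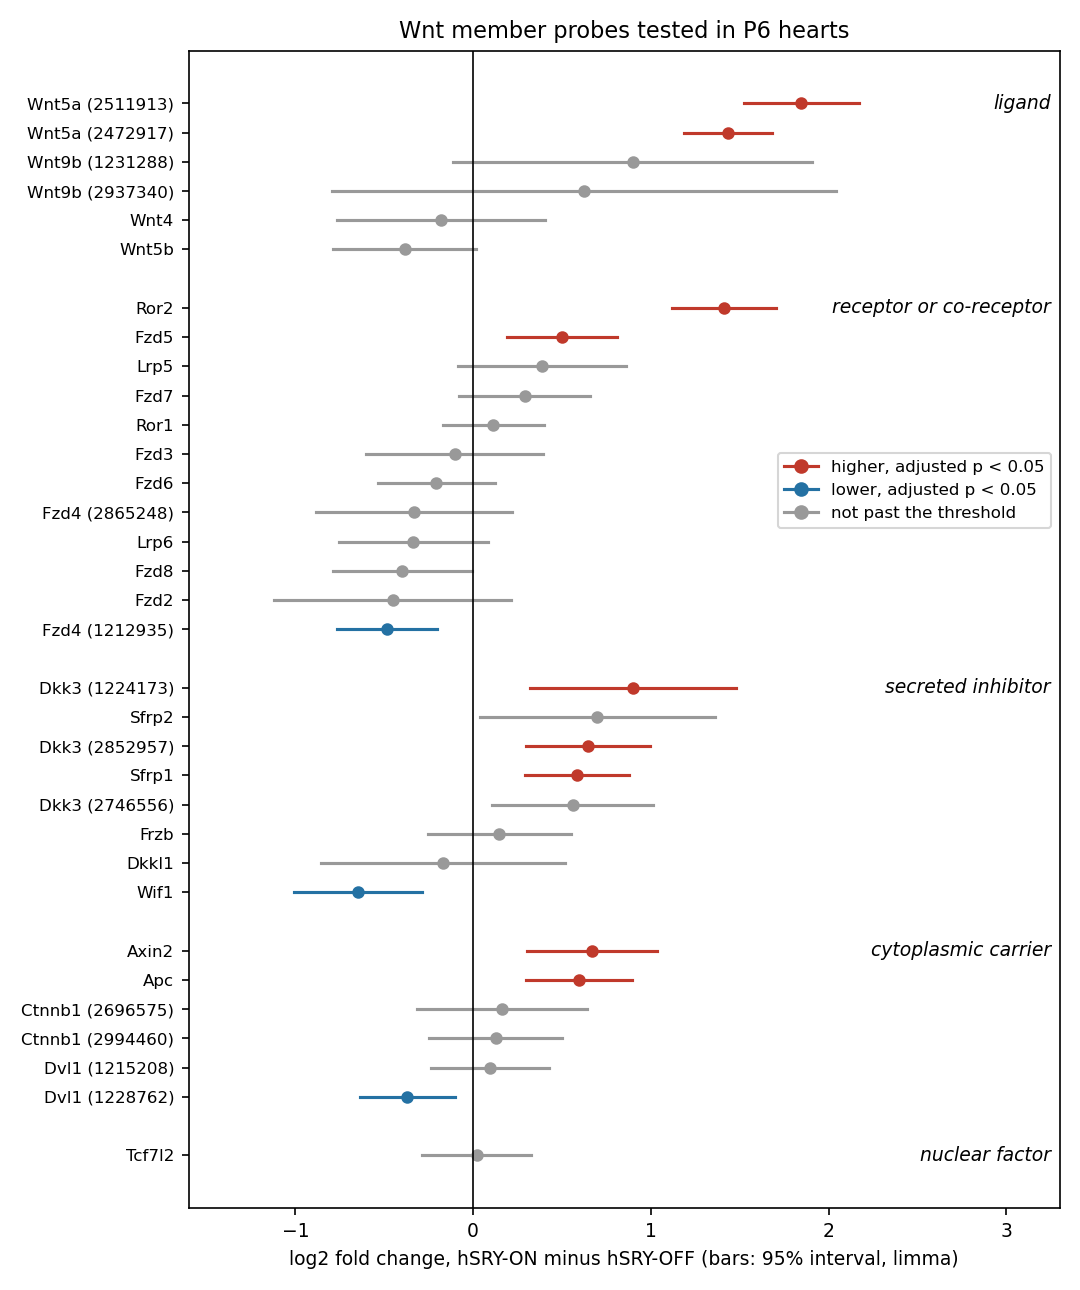
Log2 fold change of each of the 33 tested Wnt member probes (horizontal axis, hSRY-ON minus hSRY-OFF, 3 hearts each) with its 95% interval from limma, grouped by class. Ror2 and the Wnt5a probe detected in both groups lie at 1.41 and 1.84, and the changed probes other than those of Wnt5a and Ror2 lie between -0.65 and 0.90. The other Wnt5a probe is drawn at its fitted 1.43, against hSRY-OFF hearts at background, where its bound is a 1.88-fold rise. Numbers in parentheses tell apart the probes of a gene.

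The arrays were of like depth, with 47.2% to 51.3% of probes detected per heart, and hSRY-OFF replicate 3 was the dimmest, with a mean intensity of 631 against 723 to 939. Mouse Sry was not detected in any heart, and human SRY was not measured. All 9 cardiomyocyte markers examined were detected, and 4 of them fell, Myh6 by 0.51, Tnni3 by 1.13, Pln by 1.47 and Ryr2 by 1.09. Their normalized intensities summed to 190247 to 202697 per hSRY-OFF heart, against 180187 to 190187 per hSRY-ON heart, a sum to which the brightest probes, Myl2, Myl3 and Nppa, contribute most. These probes stood at 15.25 to 15.42 in every heart, near the top of the normalized scale, where a change may not show. Marker lists of other cells differed between the groups as well. Of 8 tested macrophage markers 6 rose, and the sum over the 9 on the array was 3855 to 4902 per hSRY-OFF heart, against 8487 to 9039 per hSRY-ON heart, with Itgam undetected. The sum of 8 smooth muscle and pericyte markers was 27979 to 33550 against 41163 to 44843, most of it from Acta2, and of the 7 tested ones Acta2 and Tagln rose, by 0.53 and 1.81, while Rgs5, Pdgfrb and Myh11 were at -0.57, -0.43 and -0.42 without passing, and Cnn1 was undetected. That of 7 epicardial markers was 2166 to 2605 against 2757 to 2829, with 2 up, 1 down and Tbx18 undetected. Of 4 tested skeletal muscle markers 3 fell, Ckm, Acta1 and Myh8, while Mylpf was at 0.38 without passing and Tnnt3 was undetected. The sum over 5 was 19731 to 22013 per hSRY-OFF heart against 8206 to 10918 per hSRY-ON heart, most of it from Ckm. Whether these transcripts came from skeletal muscle or from cardiomyocytes was not tested. Of 4 liver markers, Alb and Apoh were undetected and Ttr was detected on all 3 hSRY-ON and 0 hSRY-OFF arrays, with sums of 112 to 114 against 272 to 326. Of 4 tested brown fat markers 2 rose, Ucp1 and Adipoq, while Cfd was at 1.26 and Cidea at -1.05 without passing. Fabp4 was detected on 2 hSRY-OFF and 0 hSRY-ON arrays, and Plin and Elovl3 were undetected. The sums over 7 overlapped, at 1981 to 2730 per hSRY-OFF heart against 1191 to 3742 per hSRY-ON heart. The part of these lists in the results on the Wnt members was not tested. The lung airway gene Scgb1a1 stood at 13.74 in hSRY-ON replicate 1 and at 4.53 to 6.52 on the log2 scale in the other hearts. The other lung markers did not stand out in that heart. Sftpb was at 5.88 there and at 5.40 and 5.70 in hSRY-ON replicates 2 and 3, Sftpc was at 4.83 and Sftpa1 at 4.64. Without hSRY-ON replicate 1 the member counts were 7 up and 0 down. In whole hearts, fewer cells of a type and less RNA per cell cannot be told apart.

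Among the ligands, Wnt5a alone changed. This ligand directs cell movement and polarity in the outflow tract and in other mesenchyme. Probe ILMN_2511913 gave normalized log2 intensities of 8.11, 8.20 and 8.43 in hSRY-OFF replicates 1 to 3 and of 10.23, 10.10 and 9.95 in hSRY-ON replicates 1 to 3. Every hSRY-ON heart was thus well above every hSRY-OFF heart, and the same held for the deposited intensities, which were 377 to 521 without and 1067 to 1241 with active hSRY. The difference was a 3.59-fold rise (adjusted p = 0.000211 from limma). The second Wnt5a probe, ILMN_2472917, was above background on all 3 hSRY-ON and on none of the 3 hSRY-OFF arrays. It measured 6.34, 6.37 and 6.32 in hSRY-ON hearts against 4.90, 4.93 and 4.89 in hSRY-OFF hearts, and since the latter are at background it rose at least 1.88-fold (adjusted p = 0.00020 from limma). This probe was tested only because of the hSRY-ON arrays. The bound sets each dim array to its lowest signal among detected probes. The call of the first probe held under all 9 alternatives and with each heart left out. Its fitted log2 difference was 1.48 to 1.95 under other processing. The second probe's call held where tested, with differences of 0.44 to 1.51 under other processing. Its p-value rests on hSRY-OFF values at background, so its calls add no separate support.

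The ligand class held 28 probes of 19 genes, of which 6 probes of 4 genes were tested. For Wnt9b, a ligand of the endocardium and of kidney and facial epithelia, probe ILMN_1231288 gave 5.64, 5.19 and 6.20 in hSRY-OFF and 5.98, 7.57 and 6.16 in hSRY-ON hearts. Its other probe, ILMN_2937340, gave 5.19, 5.01 and 6.34 against 4.95, 7.42 and 6.03. On both probes hSRY-ON replicate 2 was the highest heart and the remaining hearts of the groups overlapped. Their log2 fold changes of 0.90 (95% interval -0.11 to 1.91, adjusted p = 0.165 from limma) and 0.62 did not pass, and without hSRY-ON replicate 2 they were 0.40 and -0.02. Wnt5b, the closest relative of Wnt5a, gave 7.50, 7.59 and 7.85 in hSRY-OFF and 7.38, 6.95 and 7.47 in hSRY-ON hearts. Its hSRY-ON values were all below the hSRY-OFF ones, yet the difference of -0.38 (95% interval -0.79 to 0.02) did not pass (adjusted p = 0.139, limma). Wnt4 stood at -0.18 with overlapping hearts. The median of the 6 tested ligand probes was 0.76, midway between the values of the Wnt9b probes. Without hSRY-ON replicate 2 it was 0.19.

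The other ligands were at or near background. For 12 of them, Wnt1, Wnt2, Wnt3a, Wnt6, Wnt7a, Wnt7b, Wnt8a, Wnt8b, Wnt9a, Wnt10a, Wnt10b and Wnt11, no probe was detected on any array, with normalized values of undetected ligand probes between 4.40 and 5.23. Wnt2b, Wnt3 and Wnt16 had 1 probe each that was detected on 1 of the 6 arrays. Wnt2b was detected in an hSRY-ON heart and the others in an hSRY-OFF heart. A change below the detection limit of the array would not be seen for these genes.

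**Figure D2:**
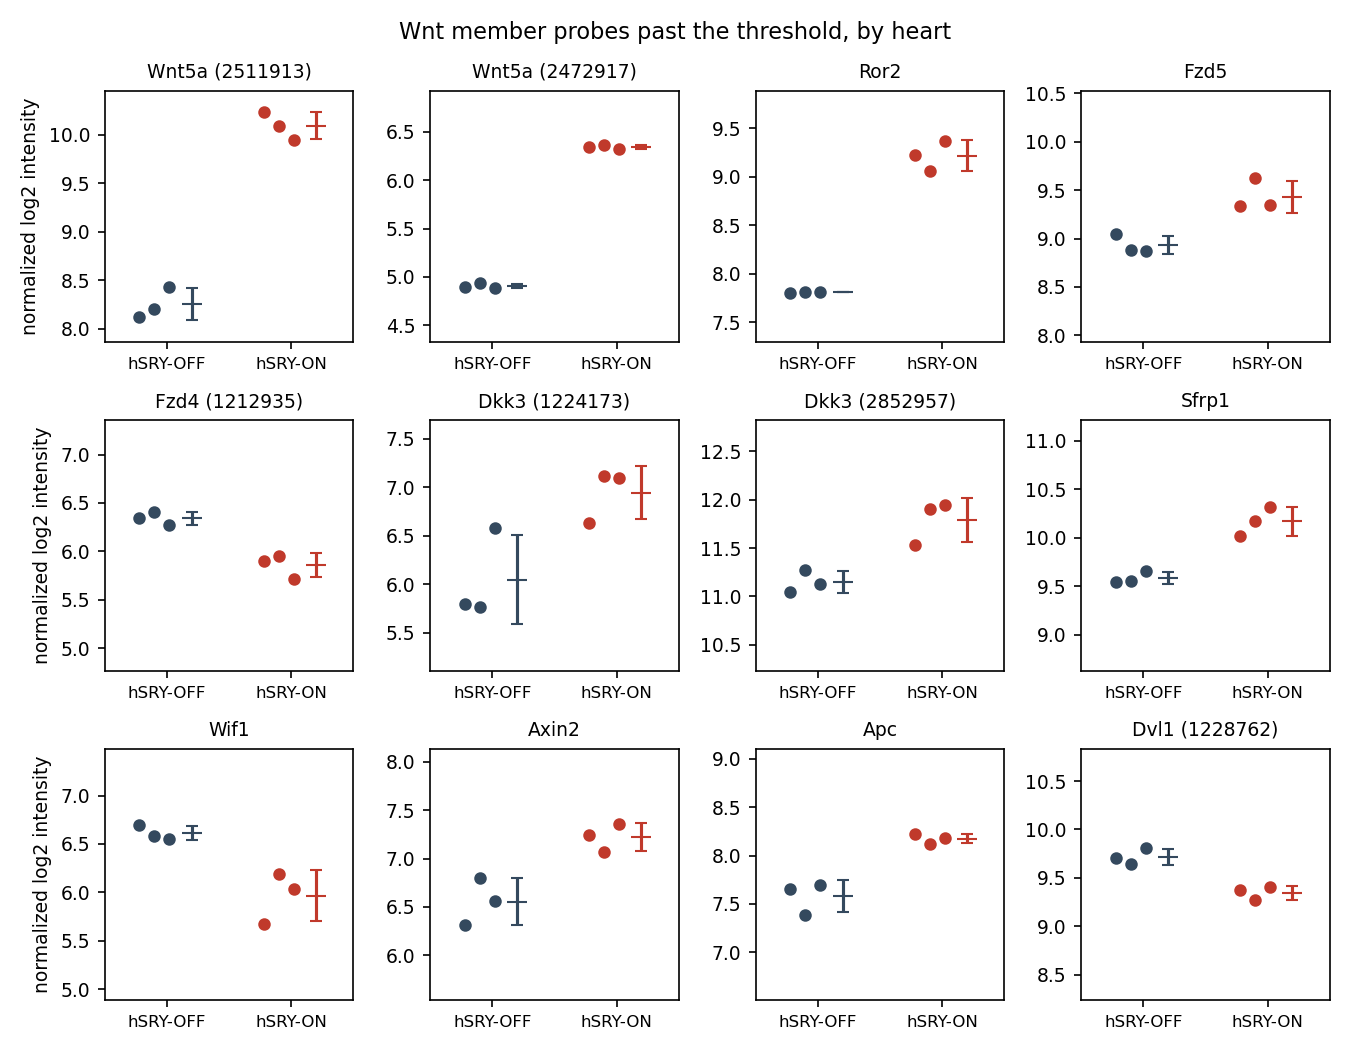
Normalized log2 intensity (vertical axes, all spanning the same number of units) of the 12 Wnt member probes past the threshold, with 1 point per heart and the mean and SD of each group (n = 3) beside the points. The groups do not overlap in any panel, and they differ by the widest margin for Wnt5a and Ror2.

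Of the receptors and co-receptors, Ror2 and Fzd5 rose and 1 of 2 probes of Fzd4 fell. Ror2, a tyrosine kinase-like receptor that binds Wnt5a, gave 7.80, 7.81 and 7.81 in hSRY-OFF and 9.23, 9.06 and 9.38 in hSRY-ON hearts. The groups were far apart, on the deposited intensities too, at 289 to 437 against 668 to 750. Ror2 rose 2.66-fold (adjusted p = 0.000408, limma), a call kept under all 9 alternatives and with each of the 6 hearts left out, over which it ranged from 1.03 to 1.51. Its relative Ror1 measured 6.69 ± 0.10 (SD, n = 3) in hSRY-OFF and 6.80 ± 0.11 in hSRY-ON hearts. The difference of 0.11 had a 95% interval of -0.17 to 0.40, which leaves out a rise of the size seen for Ror2, but the difference between the receptors was not itself tested.

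Fzd5, a Frizzled receptor for several ligands including Wnt5a, gave 9.04, 8.88 and 8.87 in hSRY-OFF and 9.33, 9.62 and 9.34 in hSRY-ON hearts, a rise of 0.50 (standard error 0.13, adjusted p = 0.0280 from limma). All hSRY-ON values were higher, by a margin of about the spread within a group. Leaving out any hSRY-OFF heart, or replicate 1 or 2 of hSRY-ON, ended the call. So did arrays left unnormalized and a block on the replicate number. Fzd4, which on endothelial cells also binds the non-Wnt ligand Norrin, was lower on probe ILMN_1212935. It gave 6.34, 6.41 and 6.27 in hSRY-OFF and 5.90, 5.95 and 5.71 in hSRY-ON hearts, and fell by 0.49 (adjusted p = 0.0221, limma). The groups did not overlap there, but on the other Fzd4 probe, ILMN_2865248, they did, with 6.41, 6.53 and 6.86 against 6.41, 6.63 and 5.76 and a difference of -0.33 (95% interval -0.88 to 0.22). The Fzd4 call ended without replicate 1 or 2 of hSRY-OFF, or without replicate 1 or 3 of hSRY-ON. It also ended under 5 of the 9 processing alternatives, namely no background correction, where the difference was -0.16, normexp (offset 50), median scaling, arrays left unnormalized, and eBayes with a trend. Endothelial markers stood lower as well, with 4 of 9 tested ones down, 1 up, Kdr undetected, and a sum over 10 of 32143 to 35557 per hSRY-OFF heart against 27094 to 30738 per hSRY-ON heart, and their part in the Fzd4 result was not tested.

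The remaining receptors did not pass. Fzd2 had the largest difference among them, -0.45 (95% interval -1.12 to 0.21, adjusted p = 0.280 from limma), with 7.81, 7.45 and 8.17 in hSRY-OFF and 7.93, 7.22 and 6.91 in hSRY-ON hearts. Its groups overlapped through hSRY-ON replicate 1. Fzd8 was lower in every hSRY-ON heart, at -0.40 (95% interval -0.79 to -0.01), but missed the adjusted threshold at 0.118 (limma). Lrp5 and Lrp6, the co-receptors of the beta-catenin branch, lay on opposite sides of 0, at 0.39 and -0.34, with overlapping hearts. Fzd3, Fzd6 and Fzd7 were at -0.11, -0.21 and 0.29. Fzd1 and Fzd10 were detected on no array. Over the 12 tested probes of 11 receptor genes the median was -0.16. The test was passed by 3 of these probes, 25%, against 27.5% of all tested probes.

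Of the secreted inhibitors, Sfrp1 and Dkk3 rose and Wif1 fell. Sfrp1, which binds Wnt ligands through a Frizzled-like cysteine-rich domain, gave 9.55, 9.56 and 9.65 in hSRY-OFF and 10.02, 10.18 and 10.32 in hSRY-ON hearts. The groups were separate, and the rise was 0.58 (standard error 0.12, adjusted p = 0.0121 from limma). It did not pass without hSRY-OFF replicate 1 or without normalization between arrays. Sfrp2 gave 5.51, 5.69 and 5.51 against 6.74, 5.56 and 6.49, so that hSRY-ON replicate 2 stayed among the hSRY-OFF hearts while the others were higher. Its difference of 0.70 (95% interval 0.04 to 1.36) missed the threshold, with an adjusted p of 0.108 from limma, and passed without hSRY-ON replicate 2 at 1.05.

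Dkk3, a divergent member of the Dickkopf family, was placed in this class by its name. It was measured by 3 probes, all with positive differences, and whether it inhibits Wnt signals in these hearts was not tested. Probe ILMN_2852957 gave 11.05, 11.27 and 11.13 in hSRY-OFF and 11.53, 11.90 and 11.95 in hSRY-ON hearts, a rise of 0.65 (adjusted p = 0.0167, limma). Probe ILMN_1224173 gave 5.79, 5.77 and 6.58 against 6.63, 7.11 and 7.09, a rise of 0.90 (adjusted p = 0.0324, limma). On the former the hearts were well separated, on the latter hSRY-OFF replicate 3 came close to hSRY-ON replicate 1. Probe ILMN_2746556 gave 10.78, 11.02 and 10.41 against 11.02, 11.42 and 11.45, with the lowest hSRY-ON heart level with the highest hSRY-OFF heart, and its 0.56 did not pass (adjusted p = 0.0686, limma). Both Dkk3 calls ended without replicate 1 of hSRY-OFF, or without replicate 2 or 3 of hSRY-ON, and that of ILMN_1224173 also without hSRY-OFF replicate 2. Both were also lost without normalization between arrays, and that of ILMN_1224173 without a probe filter. The classical Dickkopf antagonists of Lrp5 and Lrp6, Dkk1, Dkk2 and Dkk4, were detected on no array.

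Wif1, which binds Wnt ligands outside the cell, was the inhibitor that fell. It gave 6.70, 6.59 and 6.55 in hSRY-OFF and 5.67, 6.18 and 6.04 in hSRY-ON hearts, and all hSRY-ON values were lower. The difference was -0.65 (standard error 0.16, adjusted p = 0.0195 from limma). It did not pass without replicate 1 or 2 of hSRY-OFF or without replicate 1 of hSRY-ON. The call was also lost without normalization between arrays and without background correction, where the difference was -0.23. Frzb, also named Sfrp3, was detected on all 3 hSRY-ON but only 1 hSRY-OFF array and stood at 0.15 (95% interval -0.25 to 0.55). Dkkl1, a Dickkopf-like gene best known from the testis, was at -0.17 on its only tested probe. Sfrp4 and Sfrp5 were undetected. Of the 8 tested probes of this class, which was set by gene symbol, 4 passed, both Dkk3 calls among them. This was 50%, against 27.5% of all tested probes, and the median of the 8 was 0.57. Fibroblasts are known to make Sfrp and Dkk3 transcripts. Of 9 tested fibroblast markers 1 rose, Tcf21 by 0.76, and 0 fell. Pdgfra was at 0.41, and Col3a1 and Lum were at -0.60 and -0.43, all without passing. The sum over 10 was 34555 to 37980 per hSRY-OFF heart against 31677 to 35506 per hSRY-ON heart, with overlapping groups. Most of it came from Dcn, Col1a1 and Lum. The part of fibroblasts in the rises of Sfrp1 and Dkk3 was not tested.

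Inside the cell, the scaffolds Axin2 and Apc rose and the beta-catenin gene did not change measurably. Axin2, a brake on the pathway that is itself a widely used target of beta-catenin, gave 6.31, 6.79 and 6.56 in hSRY-OFF and 7.25, 7.07 and 7.35 in hSRY-ON hearts. The hSRY-ON hearts were all higher, and the rise was 0.67 (standard error 0.16, adjusted p = 0.0180 from limma). This call ended without replicate 1 of hSRY-OFF, without replicate 1 or 3 of hSRY-ON, or without normalization between arrays. Apc, the scaffold that binds beta-catenin in the destruction complex, gave 7.66, 7.39 and 7.70 against 8.22, 8.12 and 8.18 on probe ILMN_2655204. It rose by 0.59 (adjusted p = 0.0126, limma), a call that held with each heart left out but not without normalization between arrays. The other probe of Apc was detected on no array.

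Dvl1, which relays the signal from Frizzled, was split between its probes. Probe ILMN_1228762 gave 9.71, 9.64 and 9.81 in hSRY-OFF and 9.37, 9.27 and 9.40 in hSRY-ON hearts, a fall by 0.37 that passed narrowly (adjusted p = 0.0482, limma) and was lost when any 1 of the 6 hearts was left out. Probe ILMN_1215208 gave 6.42, 6.24 and 6.65 against 6.43, 6.62 and 6.54, a difference of 0.09 with overlapping hearts. Dvl2 was detected on 1 array and Dvl3 on none. Ctnnb1 gave 10.07, 10.25 and 9.47 in hSRY-OFF and 10.05, 10.20 and 10.02 in hSRY-ON hearts on probe ILMN_2696575, and 10.58, 10.93 and 10.41 against 10.82, 10.63 and 10.85 on ILMN_2994460. The hearts of both groups were intermingled on these probes, with 95% intervals of -0.32 to 0.64 and -0.25 to 0.50. The third probe of Ctnnb1 was at background. The 6 tested probes of this class had a median of 0.14.

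Of the nuclear factors, Tcf7l2 alone was measurable. Its probe ILMN_2641647 gave 9.23, 9.17 and 9.52 in hSRY-OFF and 9.32, 9.36 and 9.30 in hSRY-ON hearts. The hSRY-ON values lay within the hSRY-OFF range, and the difference of 0.02 had a 95% interval of -0.29 to 0.33. Both probes of Lef1, both of Tcf7 and the other two of Tcf7l2 were detected on no array.

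**Figure D3:**
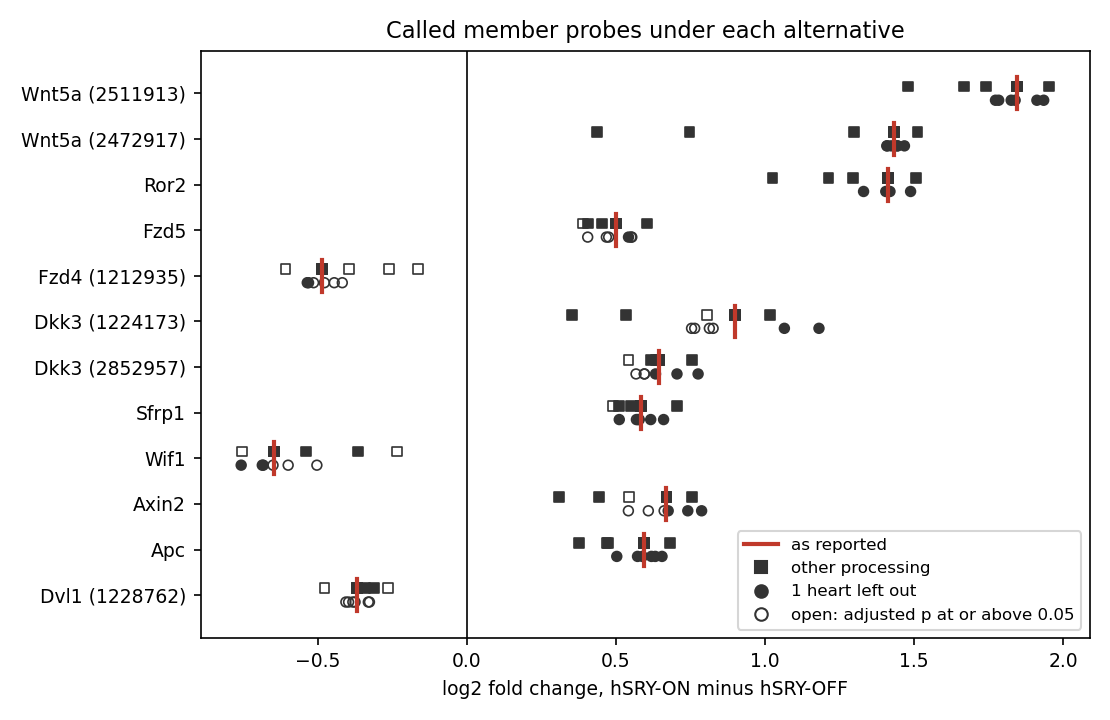
Log2 fold change (horizontal axis) of the 12 changed Wnt member probes as reported (red bars), under 9 other ways of processing (squares) and with 1 heart left out (circles), where open symbols did not pass the adjusted threshold. No probe changed sign. Filled symbols throughout are seen for Ror2 and Wnt5a only.

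The promoters of the changed members were compared by sequence. The RefSeq promoter table (GRCm38.p6, windows from 250 bases before to 50 after a gene's start) held 37 of the 52 member genes and 6 of the 10 changed ones, namely Axin2, Dvl1, Fzd4, Fzd5, Ror2 and Wif1. Of these, Ror2 and Axin2 are shown as members that rose and Wif1 as the inhibitor that fell, each with the 250 bases before its start, 5′ to 3′ on the gene's strand, and with the GC box GGGCGG or its reverse complement CCGCCC in capitals.
Ror2, chr13:53286125-53286374, minus strand: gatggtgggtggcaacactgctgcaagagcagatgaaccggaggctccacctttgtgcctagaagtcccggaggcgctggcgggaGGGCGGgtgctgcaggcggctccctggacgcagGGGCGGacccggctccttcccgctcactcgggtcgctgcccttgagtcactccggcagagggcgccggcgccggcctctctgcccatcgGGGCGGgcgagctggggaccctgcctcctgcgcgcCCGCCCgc
Axin2, chr11:108920099-108920348, plus strand: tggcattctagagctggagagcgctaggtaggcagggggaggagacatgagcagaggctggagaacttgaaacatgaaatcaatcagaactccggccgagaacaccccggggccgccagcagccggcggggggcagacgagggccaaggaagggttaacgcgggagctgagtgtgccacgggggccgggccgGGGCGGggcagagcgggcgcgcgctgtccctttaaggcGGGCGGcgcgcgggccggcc
Wif1, chr10:121033754-121034003, plus strand: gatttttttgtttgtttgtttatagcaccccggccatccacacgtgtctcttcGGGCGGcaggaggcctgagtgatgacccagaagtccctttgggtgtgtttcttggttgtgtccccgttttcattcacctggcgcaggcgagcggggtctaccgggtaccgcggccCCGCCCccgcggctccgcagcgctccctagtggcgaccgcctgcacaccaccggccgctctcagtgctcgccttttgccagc

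These stretches held 4, 2 and 2 GC boxes and were 73.2%, 69.2% and 62.8% G or C, against a median of 52.4% over all promoters in the table. A GC box was present in the whole window of all 6 changed members, in 78.3% of the 46 member windows and in 35.7% of all 32851 windows. The core letters AACAAT, bound by SRY and SOX proteins, and their reverse complement ATTGTT were in none of the 6 changed members' windows, in 6.52% of the member windows and in 10.7% of all. The TCF and LEF core CTTTGA or TCAAAG was likewise in none of the 6, in 15.2% of the member windows and in 5257 of all 32851 windows. The letters of the TATA box, TATAAA or TTTATA, were in Wif1 of the 6, in 19.6% of the member windows and in 13.6% of all. In Wif1 a match, tttata, lay near the upstream end of the stretch shown. The search took no account of the distance to the start. None of these motifs contains another, and an absence concerns these exact letters in these windows only. Variants of the cores were not searched.

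Matches were found in members whose level did not pass the test. They are shown, with 12 bases on either side and the match in capitals, since they are the sites of the tested members with either core. The SRY and SOX core was in Tcf7l2 and Dkkl1, and the TCF and LEF core in Ror1, Wnt5b and Frzb.
Tcf7l2, chr19:55741696-55741725, plus strand: gcccaaaggatcATTGTTggccgcccccgc
Dkkl1, chr7:45211982-45212011, minus strand: gtgtggtcagtcAACAATacagatgtggat
Ror1, chr4:100095574-100095603, plus strand: cgtcaaaatgtcTCAAAGgtcccatcaaca
Wnt5b, chr6:119449440-119449469, minus strand: gagtaagtctctCTTTGAtctgctccctgt
Frzb, chr2:80447474-80447503, minus strand: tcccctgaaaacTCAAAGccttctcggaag

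The rest of the pathway was described by 4 lists, with 1 value per gene from its brightest tested probe. Among all 9660 tested genes 28.8% changed by this measure, 14.9% up and 13.9% down, with a median of 0.0026. Of the genes that secrete Wnt proteins or regulate their receptors, 22 were on the array and 8 were tested. In this list 4 rose and 0 fell (limma), and the 4 that did not pass lay between -0.29 and 0.40. Porcn, the acyltransferase that attaches the lipid of Wnt proteins, rose by 1.81 (standard error 0.16), and by 1.5 on its other probe. Apcdd1, a membrane inhibitor of the pathway, rose by 1.57, the glypican Gpc3 by 0.59 and the co-receptor Ptk7 by 0.44. The carrier of secreted Wnt proteins, Wls, listed on the array as Gpr177, was at 0.28 and did not pass. The list's median was 0.42.

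**Figure D4:**
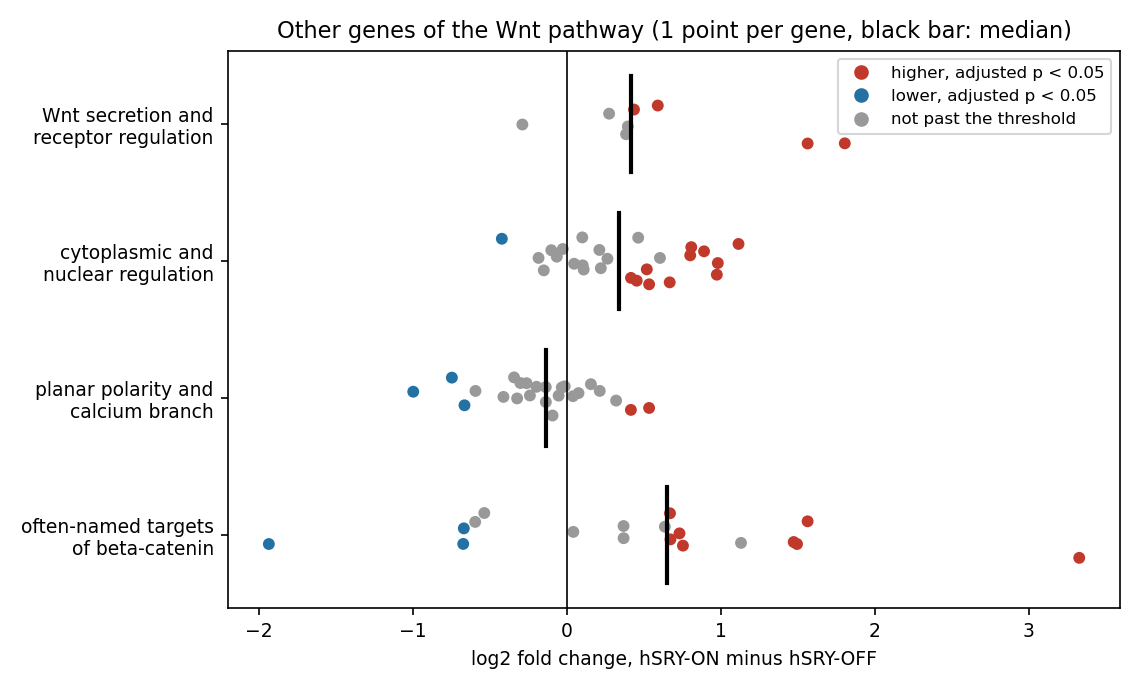
Log2 fold change (horizontal axis, hSRY-ON minus hSRY-OFF) of the tested genes in 4 lists of other Wnt pathway genes, 1 point per gene from its brightest probe, with the median of each list as a black bar. The medians are 0.42, 0.34, -0.14 and 0.65 from top to bottom, and a vertical offset within a list only separates the points.

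Of the cytoplasmic and nuclear regulators, 26 were tested, 11 rose and 1 fell, with a median of 0.34, or 0.24 with genes seen above background in 1 group only set to their bounds. The largest rises were those of Frat2, a binding partner of the kinase Gsk3, at 1.12, of Cxxc4, a binding partner of Dvl, at 0.98 (0.49 on its other probe) and of Btrc, the ubiquitin ligase adaptor that recognises marked beta-catenin, at 0.98. Ctnnbip1, which keeps beta-catenin from Tcf factors, fell by 0.42. Without normalization between arrays 3 rose, and with 1 heart left out 5 to 10 rose, with 5 without replicate 2 of hSRY-OFF, 6 without replicate 1 of hSRY-OFF or replicate 2 of hSRY-ON, and 7 without replicate 1 of hSRY-ON. The falling count was 0 with any heart but replicate 3 of hSRY-OFF left out. The symbol Tcf3, which rose by 0.52, has been used for both Tcf7l1 and the E2A gene, and which of them the probe measures is not known.

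The branch of planar polarity and calcium signalling, which Wnt5a and Ror2 are known to feed, had 24 tested genes, of which 2 rose and 3 fell. Camk2a and Camk2d, kinases activated by calcium, fell by 0.996 and 0.66, and the kinase Prkca by 0.74. Ppp3ca, the catalytic subunit of calcineurin, rose by 0.54, though by 0.07 on its other probe, and the calcineurin-regulated factor Nfatc1 rose by 0.42. No gene of this list rose without normalization between arrays, without a probe filter or in the blocked fit on replicate numbers. Nor did any rise with any heart but replicate 3 of hSRY-OFF left out. The falling count was 3 or 4 with each heart left out and 2 to 4 under other processing. The median was -0.14. The falls of 4 of 9 cardiomyocyte markers are given above, and their part in the fall of these kinases was not tested.

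Of the genes often named as targets of beta-catenin, 18 were tested, 8 rose and 3 fell, with a median of 0.65, or 0.51 with genes seen above background in 1 group only set to their bounds. Fst, which encodes the activin antagonist follistatin, was above background on all hSRY-ON and none of the hSRY-OFF arrays and rose at least 6.21-fold. It was tested only because of the hSRY-ON arrays, as was Myc among the 8 that rose. Apcdd1, held by the first list too, rose by 1.57, and the matricellular gene Ctgf by 1.5. In the other direction, the growth factor gene Fgf9 fell by 1.93 on the log2 scale, with no overlap between the groups (adjusted p = 6.04e-05, limma). The cell cycle gene Ccnd1 fell by 0.67 and the Notch regulator Nrarp by 0.67. Targets of this list thus lay on both sides, and many of these genes are known to respond to other pathways as well.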

How the data were processed

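The authors hybridized biotin-labelled cRNA from 3 hSRY-ON and 3 hSRY-OFF hearts to Illumina MouseRef-8 arrays. They deposited the mean bead intensity of each probe on a linear scale, without normalization, and a detection p-value against the negative-control beads. Software for bead summarisation is not given in the sources used here. The paper names TCC without settings for its tests, and the submitters' processing notes name limma.

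Intensities were background-corrected with neqc of limma 3.58.1 (R 4.3.3) from the detection p-values, with an offset of 16, quantile normalized and taken to log2. Probes with detection p-values under 0.05 on at least 3 of 6 arrays were fitted with lmFit and eBayes, with group as the only term. The steps were tested on simulated data. The planted changes were larger than those of the changed members other than Wnt5a and Ror2, so recovery of changes of that smaller size was not tested. Precision is limited by the 3 arrays per group, and p-values measure the spread between these hearts only.

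Members and gene lists were chosen with earlier results of these data known. Each member probe past the threshold, the other probes of its gene and the largest remaining difference per class are given by heart. Other members are named once, with ranges and counts. Of each other list, the 3 largest changes per direction are named, or all in a list under 12 tested genes. Gpr177, Tcf3 and the values by heart of Wnt5b lie outside this rule and were chosen after their values were seen. Motif searches and the promoters shown were chosen after the values were seen.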

Additional observations from a re-analysis of the deposited data

How the results depend on the processing

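The member probes numbered 9 up and 3 down as reported. Under the 9 alternatives that kept all hearts, the rising count ranged from 4 to 10 and the falling count from 0 to 3. Without background correction 1 probe fell, with median scaling of the detected probes 1 fell, and without normalization between arrays 4 rose and 0 fell, a setting that moved the median of all tested probes to -0.12. Median scaling moved it to 0.095, and the rising share of all calls from 50.1% to 65.7%, against 38.5% without normalization. With 1 heart left out, the rising count was 4 to 8 and the falling count 0 to 2, the lowest without hSRY-OFF replicate 1. Of the 12 changed probes, 3 (both of Wnt5a and that of Ror2) passed in every setting that tested them, 9 were lost under at least 1, and 4 further probes passed under at least 1. Wnt5a ILMN_2472917, 1 of those 3, was compared with hSRY-OFF hearts at background. None of the 12 changed sign. In the lists of other pathway genes, the rising counts with 1 heart left out were 3 to 4 of secretion, 5 to 10 of cytoplasmic and nuclear, 0 to 2 of polarity and calcium, and 6 to 9 of target genes.

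Some class medians moved by more than the spread between hearts. Without a probe filter, which adds probes at background, they were 0.020 for ligands, 0.0034 for receptors and 0.13 for inhibitors. The receptor median was -0.044 with median scaling and -0.047 with detection on all 6 arrays or at 0.01. That of inhibitors was 0.30 without background correction. That of cytoplasmic carriers was 0.051 without normalization and 0.26 with median scaling. With each heart left out, the medians ranged from 0.19 to 1.21 for ligands, -0.19 to -0.058 for receptors, 0.50 to 0.64 for inhibitors and 0.11 to 0.30 for carriers. The cause was not tested beyond the number of probes.

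Members that had not passed changed sign in some settings. Without normalization between arrays, Dvl1 ILMN_1215208 was at -0.023, Tcf7l2 at -0.082 and Ror1 at -0.0090, and with median scaling Fzd3 was at 0.012. With 1 heart left out, values ranged from -0.069 to 0.32 for Ctnnb1 ILMN_2696575, -0.0026 to 0.20 for Dvl1 ILMN_1215208, -0.36 to 0.051 for Wnt4, -0.021 to 1.22 for Wnt9b ILMN_2937340, -0.049 to 0.13 for Tcf7l2, -0.32 to 0.12 for Fzd3, -0.53 to 0.095 for Dkkl1 and -0.0015 to 0.32 for Frzb. The cause was not tested.

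No pairing of the hearts by the replicate numbers of the labels was seen, but whether same-numbered hearts shared a litter or handling is not known. Deviations of same-numbered hearts from their group means correlated at -0.025, 0.038 and -0.066 across probes. With the replicate number as a block, 8 member probes rose and 2 fell, and the calls lost were those of Fzd5 and Dvl1. The BeadChip as a block was not run, as no slides are given in the table used here. The normexp alternative with an offset of 50 used limma's saddle-point fit and was settled after seeing the data. Signal over background limits what can be seen of the 26 member genes with no tested probe.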
